A study of Homo sapiens with 44 samples.

Results

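Activated T cells release both interferon-γ (IFNγ) and tumor necrosis factor-α (TNFα), so that tumor cells near them can meet the 2 cytokines together. The comparison described here isolates what IFNγ added in cells that also received TNFα. OVCAR5 cells given 100 ng/ml IFNγ plus 10 ng/ml TNFα were compared with OVCAR5 cells given 10 ng/ml TNFα alone, at the same 4 durations of continuous exposure (2, 6, 12 and 24 h). The libraries were assigned by their treatment and duration labels, 4 on each side, which makes 8 of the 44 libraries of the series. OVCAR5 is an established human line that the labels describe as ovarian carcinoma. All cells, those without cytokine included, carried a reporter of IFNγ sensing and cyan fluorescent protein (CFP), and all were grown in serum-containing medium with antibiotics. Messenger RNA was sequenced from 1 library for each of 11 treatments at each duration. The series also holds cells given IFNγ alone (100 ng/ml among other doses), TNFα alone at lower doses (1 ng/ml among them), diluted supernatant of a co-culture of tumor cells and T cells, and unstimulated cells.

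IFNγ binds a receptor of IFNGR1 and IFNGR2 chains and, through the kinases JAK1 and JAK2, activates transcription factors that bind GAS elements. Among the first genes it turns on is IRF1, whose product, like complexes that hold IRF9, acts through interferon-stimulated response elements (ISREs). TNFα acts through TNFRSF1A and the NF-κB factors, which turn on chemokines, survival genes and their own inhibitors. In epithelial tumor cells IFNγ is known for raising antigen presentation, the chemokines that draw T cells, and ligands that restrain T cells.

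Every library was one of a kind for its treatment and duration, so the 4 libraries of a group differ in duration and are not repeats of a condition. Nothing in the labels says that they came from separate cultures, and the spread behind each p-value may then be technical. Values of single libraries are given as CPM (counts scaled to the library total after TMM), always in the order 2, 6, 12 and 24 h. Each fitted log2 fold change is given ± SE (n = 4 libraries a group). It is IFNγ plus TNFα over TNFα alone at the mean log2 duration, from edgeR's quasi-likelihood fit to all 44 libraries. A gene "rose" or "fell" when its Benjamini-Hochberg adjusted p over all 14469 genes tested was under 0.05. The 8 libraries held 10139785 to 12054313 estimated counts, and 7.30% to 8.59% of those counts came from mitochondrially encoded transcripts. All 6 epithelial markers were above 1 TPM (a share of all transcripts, scaled for length) in all 8 libraries. Of 4 ovarian carcinoma markers, PAX8 was above 1 TPM in all 8, FOLR1 lay between 0.995 and 1.95 TPM, and MUC16 and WT1 stayed under it. All 6 T cell markers stayed under 1 TPM, and 4 of them (CD3D, CD3E, CD3G and CD2) were at 0 throughout. Of 5 myeloid markers CD163 was at 0, while CD14 reached 2.28 TPM with IFNγ plus TNFα, against 0.638 with TNFα alone, LYZ 2.82 against 2.83 and ITGAM 0.906 against 4.06. Of 5 fibroblast markers COL1A2 was at 0 and COL1A1 reached 2.77 TPM with IFNγ plus TNFα, against 2.64 with TNFα alone, and all 3 endothelial markers stayed under 1 TPM. RNA came from whole cultures, so that more RNA per cell and more responding cells cannot be told apart.

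Adding IFNγ changed 3439 genes. With IFNγ plus TNFα, 1812 genes (12.5%) rose and 1627 (11.2%) fell relative to TNFα alone. Large changes were mostly upward. Of the genes that rose, 465 did so by over 1 on the log2 scale, 179 by over 2 and 98 by over 3, whereas 104, 11 and 3 genes fell by as much. At all 4 durations 1302 of the genes that rose were higher and 1048 of those that fell were lower. Among all 14469 genes tested, called or not, 2042 were higher and 2139 lower at all 4 durations. All 4 libraries of IFNγ plus TNFα lay above all 4 of TNFα alone for 401 of the 14469 genes tested and below them all for 261 of the 14469. When library totals alone were used for scaling, without TMM, 1236 genes rose and 4125 fell, which put the share of calls that were upward at 23.06%, against 52.69% with TMM. That scaling set the median log2 fold change of all genes at -0.136, against -0.02 with TMM, so that changes are read relative to that median. The upward count ran from 1289 to 1707 when each of the 8 libraries was left out in turn. The downward count fell to 983 without the 2 h library of IFNγ plus TNFα, to 1070 without the 24 h library of TNFα alone and to 808 without the 2 h library of TNFα alone. A fit to the 8 libraries alone, without slope terms, called 175 genes higher and 4 lower.

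The response grew with duration. At 2 h, 346 genes (2.39%) were more than 2-fold higher and 233 (1.61%) more than 2-fold lower, from 1 library a side and with no test. At 6 h the counts were 613 (4.24%) and 277 (1.91%), at 12 h 875 (6.05%) and 498 (3.44%), and at 24 h 1042 (7.2%) and 856 (5.92%). Genes past 8-fold higher numbered 36, 77, 168 and 182 at the 4 durations. The median log2 ratio of all genes stayed between -0.03 and 0.00 at each duration.

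**Figure D1:**
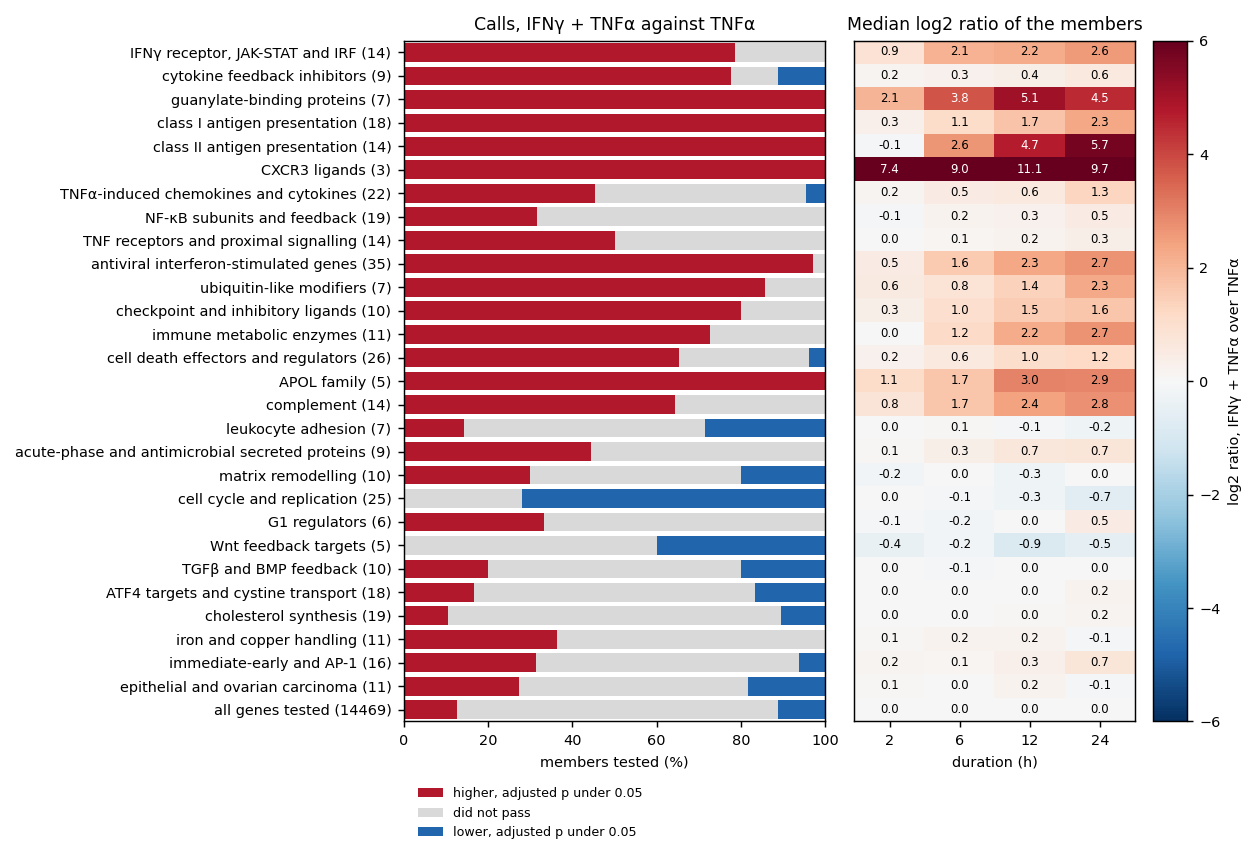
Left, for each gene list (tested members in parentheses), the percent of members called higher (red), lower (blue) or not called (grey) with IFNγ plus TNFα against TNFα alone. Right, the median log2 ratio of the members at 2, 6, 12 and 24 h, 1 library a side. The lists of class I, class II, guanylate-binding, APOL and CXCR3 ligand genes are red throughout, and the cell cycle list holds 18 blue members of 25.

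The 3 ligands of the T cell chemokine receptor CXCR3 rose, each at all 4 durations. CXCL9 (chr4:76001275-76007488 in GENCODE v29 on GRCh38, minus strand) had 41.7, 397, 1646 and 5389 CPM with IFNγ plus TNFα, against 0, 0, 0.098 and 0.361 CPM with TNFα alone. In all it drew 72489 counts with IFNγ plus TNFα and 5 with TNFα alone, a ratio of 14490 with a 95% exact interval of 6211 to 44640 that covers counting error only (adjusted p = 2.85e-23 in the edgeR fit). CXCL10 (chr4:76021117-76023497) had 278, 2997, 5597 and 6591 CPM with IFNγ plus TNFα, against 1.47, 5.59, 2.36 and 7.95 CPM with TNFα alone (log2 fold change 9.41 ± 0.27, adjusted p = 1.92e-16). CXCL11 (chr4:76033682-76041415) had 50.6, 908, 3013 and 4310.1 CPM with IFNγ plus TNFα, against 1.03, 3.52, 5.5 and 10.8 CPM with TNFα alone (log2 fold change 8.13 ± 0.25, adjusted p = 2.98e-16). For each of the 3 genes the lowest library of IFNγ plus TNFα lay above the highest of TNFα alone. The increase was already large at 2 h, with log2 ratios of 7.93, 7.41 and 5.40 for CXCL9, CXCL10 and CXCL11. Scaled for length, CXCL9, CXCL10 and CXCL11 reached 2097, 6897 and 3079.6 TPM with IFNγ plus TNFα at 24 h, against 0.159, 9.41 and 8.69 TPM with TNFα alone. All 3 lie side by side on the minus strand of chromosome 4.

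**Figure D2:**
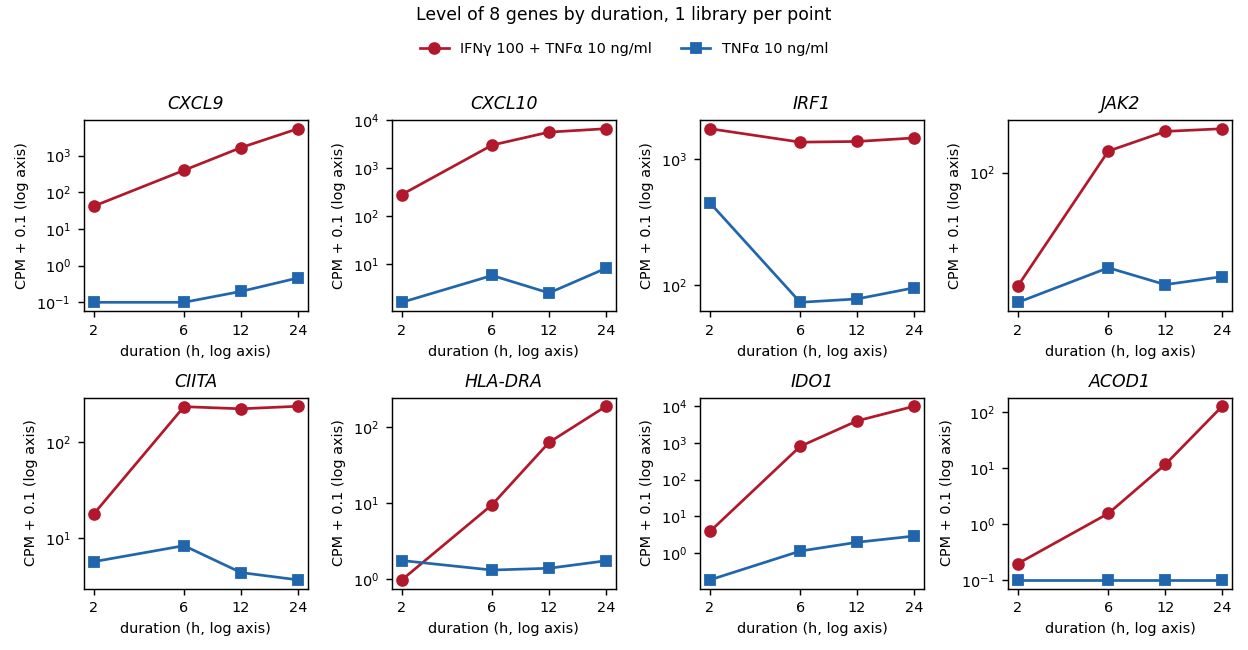
CPM plus 0.1 (log axis) of 8 genes against duration in hours (log axis), with 1 library per point: IFNγ 100 ng/ml plus TNFα 10 ng/ml in red circles, TNFα 10 ng/ml in blue squares. CXCL9, CXCL10 and IRF1 stand apart from 2 h on, HLA-DRA only from 6 h on, and ACOD1 was at 0 in all 4 libraries of TNFα alone.

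The promoters of these chemokines, of IRF1 and of the peptide transporter TAP1 are printed because they belong to genes that rose and because interferon and NF-κB elements are known to sit in them. Each is the 300-base window from 250 bases before to 50 bases after the RefSeq start (GRCh38.p14, all on the minus strand, printed 5′ to 3′ along the gene). Capitals mark matches on either strand to the GAS letters TTCNNNGAA, the ISRE letters GAAANNGAAA or the NF-κB consensus, and where 2 matches overlap the capitals run together. The windows are chr4:76007460-76007759, chr4:76023448-76023747, chr4:76036021-76036320, chr5:132490724-132491023 and chr6:32853655-32853954.
CXCL9: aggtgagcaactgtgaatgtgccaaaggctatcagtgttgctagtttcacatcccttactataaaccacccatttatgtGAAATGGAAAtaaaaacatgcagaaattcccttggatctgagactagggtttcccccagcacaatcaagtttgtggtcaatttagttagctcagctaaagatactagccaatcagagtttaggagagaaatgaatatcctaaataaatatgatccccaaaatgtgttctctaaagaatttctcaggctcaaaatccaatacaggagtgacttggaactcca
CXCL10: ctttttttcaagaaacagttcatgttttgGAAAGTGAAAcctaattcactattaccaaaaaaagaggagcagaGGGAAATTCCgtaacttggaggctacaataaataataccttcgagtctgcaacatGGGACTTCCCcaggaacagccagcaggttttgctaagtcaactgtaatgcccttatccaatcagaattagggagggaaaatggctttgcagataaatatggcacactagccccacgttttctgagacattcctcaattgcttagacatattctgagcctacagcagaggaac
CXCL11: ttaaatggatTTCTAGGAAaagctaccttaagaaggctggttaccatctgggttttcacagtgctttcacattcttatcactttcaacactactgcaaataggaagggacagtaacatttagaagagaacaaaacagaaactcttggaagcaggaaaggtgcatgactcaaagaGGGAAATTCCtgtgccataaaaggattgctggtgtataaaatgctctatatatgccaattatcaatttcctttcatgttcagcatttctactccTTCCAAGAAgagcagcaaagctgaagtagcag
IRF1: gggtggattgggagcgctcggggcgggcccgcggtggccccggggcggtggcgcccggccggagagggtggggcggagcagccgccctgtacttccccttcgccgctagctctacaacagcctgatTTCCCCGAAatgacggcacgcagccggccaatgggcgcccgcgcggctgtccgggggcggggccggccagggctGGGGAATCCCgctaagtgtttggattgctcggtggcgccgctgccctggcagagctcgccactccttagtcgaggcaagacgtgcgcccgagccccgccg
TAP1: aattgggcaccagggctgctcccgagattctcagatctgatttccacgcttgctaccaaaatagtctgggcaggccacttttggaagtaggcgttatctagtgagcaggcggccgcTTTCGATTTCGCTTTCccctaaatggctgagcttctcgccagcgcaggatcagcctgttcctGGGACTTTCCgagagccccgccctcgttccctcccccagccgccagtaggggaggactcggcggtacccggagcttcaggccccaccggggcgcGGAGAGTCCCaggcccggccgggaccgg
Counted from the start, CXCL9 held 1 ISRE match at -171 to -162. CXCL10 held 1 ISRE match at -221 to -212 and NF-κB consensus matches at -177 to -168 and -122 to -113. CXCL11 held GAS matches at -240 to -232 and 19 to 27 and an NF-κB match at -76 to -67. IRF1 held 1 GAS match at -124 to -116 and 1 NF-κB match at -50 to -41, and the TAP1 window printed held ISRE matches at -134 to -125 and -128 to -119, which overlap, and NF-κB matches at -72 to -63 and 23 to 32. The second TAP1 window in the table (chr6:32852712-32853011), which is not printed, held 1 GAS match at -189 to -181 and no ISRE or NF-κB match. Over all 35116 windows of that table, 7.66% held the GAS letters, 3.57% the ISRE letters and 11.3% the NF-κB consensus. The 15 genes named as higher had the largest increases among called genes that were higher at all 4 durations. A gene symbol and a mean log2 CPM of at least 0 over all libraries were also required. Of these 15 genes, 9 matched the table by symbol, with 11 windows. Of those 11, 4 held GAS letters, 4 ISRE letters, 7 either, and 2 the NF-κB consensus. Of the 15 genes named as lower by the same rule, 9 matched as well, with 11 windows, of which 2 held GAS letters, none ISRE letters and 2 the NF-κB consensus. All of these matches lay in the 2 windows of LTB, which are shifted by 1 base and hold the same sites. A match describes the letters and is no evidence of binding.

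Genes of the IFNγ pathway itself were mostly raised: 11 of 14 members of the receptor, JAK-STAT and IRF list rose and none fell (12.5% and 11.2% over all genes), with a median log2 fold change of 1.99 against -0.02 over all genes. The receptor chains did not pass the test. IFNGR1 had a log2 fold change of -0.12 ± 0.09 (adjusted p = 0.359) and IFNGR2 one of -0.23 ± 0.15 (adjusted p = 0.313), and without the 2 h library of IFNγ plus TNFα they were at -0.06 and -0.09. JAK2, one of the kinases bound to the receptor, had 22.4, 133, 172 and 178 CPM with IFNγ plus TNFα, against 17.9, 28.4, 22.7 and 25.2 CPM with TNFα alone (log2 fold change 2.11 ± 0.24, adjusted p = 6.09e-07). The 2 h libraries lay close together, and the other 3 with IFNγ lay well above all 4 of TNFα alone. STAT2 and IRF9, partners in an ISRE-binding complex, rose by 2.33 ± 0.13 and 1.88 ± 0.09 (adjusted p = 7.82e-13 and 1.73e-15), and STAT3 rose by 0.84 ± 0.11 (adjusted p = 5.94e-06).

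IRF1 (chr5:132481609-132490798), the early transcription factor of the pathway, had 1756, 1373, 1390.0 and 1482 CPM with IFNγ plus TNFα, against 451, 72.8, 77.5 and 95 CPM with TNFα alone (log2 fold change 3.52 ± 0.32, adjusted p = 3.25e-08). Under TNFα alone its level was highest at 2 h, whereas with IFNγ it stayed high at every duration, so that the log2 ratio was 1.96 at 2 h and 4.23 at 6 h. IRF8, better known from myeloid and B cells, had 25.9, 42.4, 37.2 and 27.5 CPM with IFNγ plus TNFα, against 1.55, 1.12, 0.982 and 0.632 CPM with TNFα alone (log2 fold change 5.03 ± 0.32, adjusted p = 1.47e-11). BATF2, a basic leucine zipper partner of IRF1, had 165, 429, 586 and 626 CPM with IFNγ plus TNFα, against 8.8, 21.9, 26.8 and 44.2 CPM with TNFα alone (log2 fold change 4.21 ± 0.22, adjusted p = 3.94e-12). Neither gene's groups overlapped. IRF7, which drives type I interferon genes, rose by 1.16 ± 0.11 (adjusted p = 3.32e-09), with the widest gap at 24 h, at 128 CPM with IFNγ plus TNFα against 25.9 CPM with TNFα alone. IRF2, which competes with IRF1 for its sites, rose by 0.81 ± 0.15 (adjusted p = 0.000269). ETV7, an ETS factor induced by interferon, had 5.59, 43.3, 51.3 and 59.5 CPM with IFNγ plus TNFα, against 0.172, 2.92, 1.18 and 1.45 CPM with TNFα alone (log2 fold change 4.57 ± 0.20, adjusted p = 3.36e-16).

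Most feedback inhibitors of cytokine signalling rose. SOCS1, which inhibits the JAK kinases, had 3.67, 8.35, 11.5 and 20.6 CPM with IFNγ plus TNFα, against 1.47, 1.2, 0.491 and 0.452 CPM with TNFα alone (log2 fold change 3.52 ± 0.33, adjusted p = 2.68e-09). SOCS3, the inhibitor best known from IL-6 signalling, had 81.2, 137, 187 and 147 CPM with IFNγ plus TNFα, against 23.5, 27.9, 30.7 and 23.9 CPM with TNFα alone (log2 fold change 2.34 ± 0.17, adjusted p = 4.98e-10). USP18, which removes ISG15 from proteins and restrains the type I interferon receptor, rose by 1.91 ± 0.17 (adjusted p = 1.03e-09). In the whole list of feedback inhibitors 7 of 9 rose (4 when scaled by library totals alone) and 1 fell, against 12.5% and 11.2% of all genes, with a median of 0.26. The gene that fell was SOCS2, which acts on growth hormone signalling, at -1.23 (adjusted p = 0.0253). Its call was lost without the 6 h library of IFNγ plus TNFα (adjusted p = 0.0915), without the 12 h library of IFNγ plus TNFα (0.132), and without the 12 h (0.0776) or 2 h library of TNFα alone (0.11), and without the 24 h library of IFNγ plus TNFα the value was -1.85.

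Beside the chemokines, the 15 genes named as higher included enzymes, innate immune effectors and complement components. IDO1 (chr8:39902275-39928444), the enzyme that starts tryptophan breakdown to kynurenine, had 3.76, 803, 3971 and 9916 CPM with IFNγ plus TNFα, against 0.086, 1.03, 1.86 and 2.8 CPM with TNFα alone (log2 fold change 10.06 ± 0.27, adjusted p = 1.68e-17). STEAP4, a metalloreductase, had 3.47, 9.07, 5.47 and 4.56 CPM with IFNγ plus TNFα, against 0.517, 0.086, 0 and 0 CPM with TNFα alone, or 236 counts against 7 in all, a ratio of 33.7 with a 95% exact interval of 16.1 to 84.8 for counting error (adjusted p = 2.94e-10 in the edgeR fit). Its fitted log2 fold change of 7.04, taken at the mean log2 duration, lies above that interval and depends on the prior count, since 2 of the 4 libraries of TNFα alone had 0 counts. TRIM22, an antiviral ubiquitin ligase, had 1.25, 23.8, 134 and 359 CPM with IFNγ plus TNFα, against 0, 0.516, 1.37 and 1.18 CPM with TNFα alone (log2 fold change 6.08 ± 0.25, adjusted p = 3.05e-16). EPSTI1, an interferon-induced gene first described in breast cancer cells grown with stroma, had 7.62, 63.4, 137 and 176 CPM with IFNγ plus TNFα, against 1.03, 3.52, 2.26 and 4.34 CPM with TNFα alone (log2 fold change 4.58 ± 0.26, adjusted p = 5.45e-12). Each of these 4 genes was higher at all 4 durations, which the naming rule required, and the groups of IDO1, STEAP4 and EPSTI1 did not overlap.

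The naming rule also took a pair of genes that cannot be read on their own. OR2I1P, an olfactory receptor gene (chr6:29550407-29557721), had a log2 fold change of 5.31 ± 0.30 (adjusted p = 1.19e-11). It overlaps UBD (chr6:29555515-29559925) on the opposite strand, and the strand counted is not given in the sources used here. BLOC1S5-TXNDC5, a readthrough transcript that shares its exons with TXNDC5, had 472 estimated counts with IFNγ plus TNFα and 0 with TNFα alone, at least 157-fold higher when 3 counts over the TNFα libraries are taken as the floor. Its call (adjusted p = 0.0443) was lost when any of the 8 libraries was left out, with an adjusted p between 0.0573 and 0.167.

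**Figure D3:**
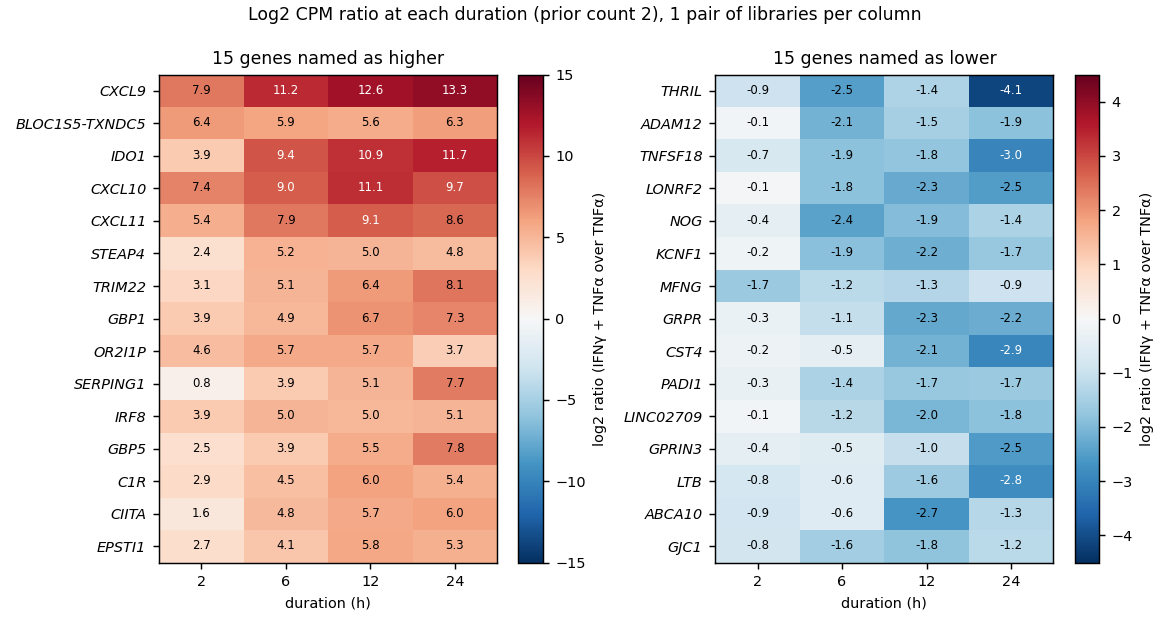
Log2 ratio of CPM (prior count 2), IFNγ plus TNFα over TNFα alone, at 2, 6, 12 and 24 h, 1 library a side. Shown are the 15 genes named as higher (left) and the 15 named as lower (right), and the colour scales differ. The naming rule required the same direction at all 4 durations. CXCL9 and IDO1 reach 13.3 and 11.7 at 24 h, and of the genes named as lower only THRIL passes -4 at any duration.

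All 18 genes tested of class I antigen presentation rose, against 12.5% of all genes, with a median log2 fold change of 1.35. Their median log2 ratio climbed through 0.32, 1.10, 1.71 and 2.34 at 2, 6, 12 and 24 h. All 18 stayed called when any of the 8 libraries was left out and under each scaling and tool. Only 3 were called in a fit to the 8 libraries alone and 2 with only 2 h and 6 h, where fewer libraries entered and slope terms were left out. HLA-B and HLA-C, whose products present peptides to CD8 T cells, rose by 1.57 ± 0.14 and 0.97 ± 0.09 (adjusted p = 1.45e-08 and 4.42e-09). HLA-B had 203, 547, 1094 and 2406 CPM with IFNγ plus TNFα, against 172, 255, 289 and 294 CPM with TNFα alone. The 2 h library with IFNγ lay below 3 of the 4 libraries of TNFα alone, and the other 3 lay above them all. These HLA genes resemble each other closely, so that reads may be shared between them. B2M, the common light chain, had 1055, 1700.5, 2685 and 4475 CPM with IFNγ plus TNFα, against 901, 1030.4, 1050.3 and 1246 CPM with TNFα alone (log2 fold change 1.04 ± 0.07, adjusted p = 3.29e-11). HLA-E, the ligand of the NKG2A receptor of NK cells and T cells, had 283, 693, 989.9 and 1142 CPM with IFNγ plus TNFα, against 124, 180.2, 186 and 183 CPM with TNFα alone (log2 fold change 2.05 ± 0.10, adjusted p = 5.49e-14).

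The peptide supply rose as well. TAP1, one chain of the peptide transporter, had 241, 830.2, 1264 and 1417 CPM with IFNγ plus TNFα, against 55.2, 140.1, 116 and 90.5 CPM with TNFα alone (log2 fold change 3.02 ± 0.16, adjusted p = 2.13e-12), without overlap. TAP2, its partner, rose by 1.58 ± 0.09 and TAPBP (tapasin, which holds class I on the transporter) by 0.68 ± 0.11 (adjusted p = 6.21e-13 and 4.91e-05). The immunoproteasome subunits PSMB8, PSMB9 and PSMB10 rose by 1.67 ± 0.11, 2.31 ± 0.13 and 1.48 ± 0.10 (adjusted p = 2.5e-11, 1.24e-12 and 1.19e-11), and the activator subunits PSME1 and PSME2 by 0.90 ± 0.06 and 1.11 ± 0.06 (adjusted p = 1.13e-12 and 7.98e-15). ERAP1, which trims peptides, rose by 0.74 ± 0.10 (adjusted p = 4.35e-06). NLRC5, the transactivator of class I genes, had 20.8, 176, 158 and 178 CPM with IFNγ plus TNFα, against 3.19, 9.97, 5.69 and 9.22 CPM with TNFα alone (log2 fold change 4.04 ± 0.24, adjusted p = 1.47e-11). It was level from 6 h on, whereas HLA-B and B2M were still climbing at 24 h.

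Class II genes, which normally mark professional antigen-presenting cells, appeared later and by a larger factor. All 14 tested rose, against 12.5% of all genes, with a median of 3.70. At 2 h their median log2 ratio was -0.06, and it then ran through 2.65, 4.70 and 5.73 at 6, 12 and 24 h. CIITA (chr16:10866222-10943021), the master regulator, had 17.7, 236, 224 and 238 CPM with IFNγ plus TNFα, against 5.52, 8.17, 4.22 and 3.52 CPM with TNFα alone (log2 fold change 4.72 ± 0.40, adjusted p = 1.02e-08), and its groups did not overlap. HLA-DRA (chr6:32439842-32445046) had 0.868, 9.34, 62.3 and 186 CPM with IFNγ plus TNFα, against 1.64, 1.2, 1.28 and 1.63 CPM with TNFα alone (log2 fold change 3.69 ± 0.24, adjusted p = 2.6e-12), so that it lay below TNFα alone at 2 h and far above it from 6 h on. CD74, the invariant chain, had 20.1, 383, 1366 and 3041 CPM with IFNγ plus TNFα, against 17.9, 50.9, 75.3 and 95.3 CPM with TNFα alone (log2 fold change 3.12 ± 0.19, adjusted p = 5.5e-11). HLA-DRB1 and HLA-DPA1 rose by 3.17 ± 0.24 and 3.83 ± 0.26 (adjusted p = 5.17e-11 and 4.59e-12). HLA-DQA1, HLA-DQB1 and HLA-DOA had only 5, 10 and 3 counts in all with TNFα alone, and their pooled ratios were 69.0 (29.3 to 214), 33.99 (18.3 to 71.5) and 119 (40.3 to 578), with 95% exact intervals for counting error. HLA-DPB1 (288 counts against 4, a ratio of 72.0 with an interval of 27.8 to 266, adjusted p = 0.00144) lost its call without the 12 h library of IFNγ plus TNFα (adjusted p = 0.0502). The peptide editors HLA-DMA and HLA-DMB rose by 2.23 ± 0.15 and 3.91 ± 0.36 (adjusted p = 4.39e-12 and 2.68e-09). CTSS, the protease that cuts the invariant chain, had 4.05, 86.2, 277 and 482 CPM with IFNγ plus TNFα, against 1.38, 7.65, 11.2 and 19.1 CPM with TNFα alone (log2 fold change 3.72 ± 0.17, adjusted p = 6.25e-15). RFX5, a factor that binds class II promoters with CIITA, changed least among those named here, by 0.72 ± 0.14 (adjusted p = 0.000322).

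Antiviral interferon-stimulated genes rose almost without exception: 34 of 35 rose and none fell, against 12.5% and 11.2% of all genes, with a median of 1.83. OAS2 and OAS1, which make the activator of RNase L, rose by 4.05 ± 0.30 and 2.42 ± 0.23 (adjusted p = 8.02e-10 and 4.85e-08). OAS2 had 1.83, 66.9, 255 and 483 CPM with IFNγ plus TNFα, against 1.21, 4.9, 5.79 and 13.2 CPM with TNFα alone, so that the 2 h values lay close together. MX1, a dynamin-like GTPase against influenza viruses, had 16.4, 119.7, 314 and 722 CPM with IFNγ plus TNFα, against 8.88, 36.8, 31.9 and 57.8 CPM with TNFα alone (log2 fold change 2.35 ± 0.17, adjusted p = 3.28e-10). IFIT1 and IFIT3, which bind foreign RNA, rose by 1.11 ± 0.15 and 2.39 ± 0.22 (adjusted p = 5.35e-06 and 4.05e-08). IFITM1, which blocks viral entry, rose by 2.70 ± 0.25 (adjusted p = 4.25e-08), RSAD2 (viperin) by 1.43 ± 0.18 (4.86e-07), CMPK2, a mitochondrial nucleotide kinase, by 3.36 ± 0.27 (5.9e-10), PARP9 by 2.87 ± 0.24 (7.24e-09), XAF1 by 3.07 ± 0.30 (7.96e-08) and IFI27 by 1.27 ± 0.06 (1.5e-15).

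All 7 guanylate-binding proteins, GTPases that attack intracellular pathogens, rose, against 12.5% of all genes. Their median was 4.08, or 4.02 with GBP6 at its lower bound. GBP1 had 203, 1281, 2097 and 2633 CPM with IFNγ plus TNFα, against 13.2, 41.4, 19.3 and 16.8 CPM with TNFα alone (log2 fold change 5.70 ± 0.28, adjusted p = 1.64e-12), and GBP5 had 13.6, 88.6, 288 and 1392 CPM with IFNγ plus TNFα, against 2.24, 5.76, 5.99 and 6.14 CPM with TNFα alone (log2 fold change 4.92 ± 0.32, adjusted p = 1.14e-10). The groups of neither gene overlapped. GBP2, GBP3, GBP4 and GBP7 rose by 3.77 ± 0.35, 2.07 ± 0.16, 4.08 ± 0.31 and 4.02 ± 0.32 (adjusted p = 4.23e-08, 1.36e-09, 2.28e-09 and 3e-10). GBP6 had 41 counts with IFNγ plus TNFα and 0 with TNFα alone, at least 13.7-fold higher. Its adjusted p of 0.0388 went above 0.05 when any single library other than the 6 h library of IFNγ plus TNFα was left out, to 0.178 without the 12 h library of IFNγ plus TNFα and to 1 without the 6 h library of TNFα alone. These genes lie in 1 cluster of near relatives, and reads may be shared among them. All 5 APOL genes, relatives of the trypanosome-killing apolipoprotein L1, rose, against 12.5% of all genes, with a median of 2.07. APOL1 had 176, 509, 1062 and 1728 CPM with IFNγ plus TNFα, against 133, 224, 210.3 and 226 CPM with TNFα alone (log2 fold change 1.71 ± 0.14, adjusted p = 5.7e-09), and APOL6 rose by 1.93 ± 0.16 (adjusted p = 9.38e-09). APOL4 had 67 counts against 0, at least 22.3-fold higher.

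Among ubiquitin-like modifiers and their enzymes 6 of 7 rose, against 12.5% of all genes, with a median of 1.33. UBD (FAT10), a modifier that sends proteins to the proteasome, had 128, 857, 1649.7 and 2504 CPM with IFNγ plus TNFα, against 7.42, 25.4, 45 and 207 CPM with TNFα alone (log2 fold change 4.56 ± 0.26, adjusted p = 1.31e-11). TNFα alone thus gave a level that climbed to 24 h, and IFNγ plus TNFα gave more at each duration. The overlap with OR2I1P applies here too. ISG15 rose by 1.33 ± 0.11 and its conjugating enzyme UBE2L6 by 2.81 ± 0.23 (adjusted p = 1.88e-09 and 4.19e-09). HERC5, the ligase that attaches ISG15, did not pass, at 0.30 ± 0.19 (adjusted p = 0.286; 0.11 without the 2 h library of IFNγ plus TNFα and 0.16 without the 24 h library of TNFα alone).

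Of 10 checkpoint and inhibitory ligands, most of which restrain T cells, 8 rose, against 12.5% of all genes, and none fell, with a median of 1.13. CD274, which encodes PD-L1, had 88.1, 218, 269 and 336 CPM with IFNγ plus TNFα, against 11, 17.6, 10.0 and 7.32 CPM with TNFα alone (log2 fold change 4.23 ± 0.23, adjusted p = 5.45e-12), and the lowest library with IFNγ lay far above the highest without it. PDCD1LG2, which encodes PD-L2, had 0.482, 9.61, 16.7 and 36.5 CPM with IFNγ plus TNFα, against 0.259, 0.688, 0.491 and 0.0900 CPM with TNFα alone (log2 fold change 4.37 ± 0.51, adjusted p = 6.71e-07). LGALS9 (galectin-9) had 2.51, 16.8, 51 and 171 CPM with IFNγ plus TNFα, against 1.9, 2.49, 2.75 and 4.34 CPM with TNFα alone (log2 fold change 3.16 ± 0.17, adjusted p = 2.75e-14). CD47, the signal that restrains phagocytes, and CEACAM1 rose by 1.19 ± 0.11 and 1.56 ± 0.25 (adjusted p = 4.84e-09 and 6.75e-05), whereas VSIR (VISTA) was at -0.14 ± 0.12 (adjusted p = 0.489).

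Of 11 metabolic enzymes of the immune response 8 rose, against 12.5% of all genes, and none fell, with a median of 1.61. WARS1, the tryptophan tRNA synthetase that IFNγ is known to induce, had 214, 1595, 3856 and 5839 CPM with IFNγ plus TNFα, against 118, 165, 173 and 161 CPM with TNFα alone (log2 fold change 3.45 ± 0.19, adjusted p = 9.32e-12). ACOD1, which makes itaconate and is known mainly from macrophages, had 0.096, 1.44, 11.4 and 127 CPM with IFNγ plus TNFα, against 0, 0, 0 and 0 CPM with TNFα alone. Its 1327 counts against 0 make it at least 442-fold higher, and 24 h held by far the largest value. In cells given IFNγ 100 ng/ml alone ACOD1 had 0, 0, 0.086 and 0 CPM. SOD2, the mitochondrial superoxide dismutase that NF-κB induces, had 1075, 2877, 3386 and 4425 CPM with IFNγ plus TNFα, against 674, 1291, 1036 and 1636 CPM with TNFα alone (log2 fold change 1.23 ± 0.21, adjusted p = 0.000168). GCH1, which starts tetrahydrobiopterin synthesis, rose by 1.61 ± 0.11, and TYMP, thymidine phosphorylase, by 1.69 ± 0.16 (adjusted p = 6e-12 and 2.82e-09). KYNU, which acts on kynurenine downstream of IDO1, did not pass, at 0.32 ± 0.21 (adjusted p = 0.309; 0.58 without the 2 h and 0.14 without the 6 h library of IFNγ plus TNFα, and 0.48 without the 24 h library of TNFα alone). IDO2 (45 counts against 3) lost its call without the 6 h library of IFNγ plus TNFα (log2 fold change 3.33, adjusted p = 0.00265 with it and 2.00, 0.314 without).

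Of 14 complement genes 9 rose, against 12.5% of all genes, and none fell, with a median of 2.21. C1R, a protease of the first component, had 7.43, 31.3, 68.4 and 191 CPM with IFNγ plus TNFα, against 0.862, 1.2, 0.884 and 4.43 CPM with TNFα alone (log2 fold change 4.78 ± 0.17, adjusted p = 1.59e-17), and C1S, its partner, had 13.8, 59.3, 114 and 259 CPM with IFNγ plus TNFα, against 1.81, 2.23, 3.44 and 10.2 CPM with TNFα alone (log2 fold change 4.34 ± 0.22, adjusted p = 1.66e-13). SERPING1, the inhibitor of both, had 0.579, 3.77, 12.7 and 75.3 CPM with IFNγ plus TNFα, against 0.259, 0.086, 0.196 and 0.181 CPM with TNFα alone, or 888 counts against 8, a ratio of 111 with an interval of 56.1 to 258 (adjusted p = 2.45e-11). CFB and C3 rose by 2.09 ± 0.10 and 1.19 ± 0.22 (adjusted p = 4.5e-15 and 0.000326). C4A and C4B, near-identical copies between which reads cannot be assigned safely, rose by 2.79 ± 0.54 and 3.40 ± 0.34 (adjusted p = 0.000531 and 5.19e-08).

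Chemokines and cytokines listed as TNFα-induced did not move as a block. The list was set by gene name, not by a response to TNFα in these cells, and some members also respond to IFNγ alone, such as CSF1. Of the 22 tested, 10 rose, 1 fell and 11 did not pass, with a median of 0.75, in data where 12.5% of all genes rose. The median was 0.36 without the 2 h and 0.44 without the 24 h library of IFNγ plus TNFα. CX3CL1 (fractalkine), which draws T cells and NK cells, had 19.97, 55.3, 85.1 and 155 CPM with IFNγ plus TNFα, against 12.2, 9.8, 4.42 and 13.4 CPM with TNFα alone (log2 fold change 2.69 ± 0.16, adjusted p = 5.59e-13). IL32 had 78.9, 366, 864 and 1472 CPM with IFNγ plus TNFα, against 24.8, 55.7, 108 and 156 CPM with TNFα alone (log2 fold change 2.66 ± 0.12, adjusted p = 5.24e-14), CCL5, a T cell chemokine, had 5.21, 27.8, 46.6 and 68.5 CPM with IFNγ plus TNFα, against 4.48, 11.2, 9.52 and 8.67 CPM with TNFα alone (log2 fold change 1.70 ± 0.20, adjusted p = 1.7e-07), and CXCL2 had 160.0, 136, 176 and 209 CPM with IFNγ plus TNFα, against 109, 44.3, 63.2 and 55.4 CPM with TNFα alone (log2 fold change 1.37 ± 0.19, adjusted p = 9.36e-06). Among these, CX3CL1 and CXCL2 showed no overlap between groups. IL15 and IL7, which sustain lymphocytes, rose by 1.35 ± 0.18 and 1.33 ± 0.24, and IL6 by 1.33 ± 0.33 (adjusted p = 1.7e-06, 0.000179 and 0.00422). IL1B (0.84 ± 0.21, adjusted p = 0.00452) lost its call without the 2 h or the 24 h library of IFNγ plus TNFα, at 0.40 and 0.41 (adjusted p = 0.302 and 0.188).

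The neutrophil chemokine CXCL8 had 922, 203, 159 and 305 CPM with IFNγ plus TNFα, against 978, 262, 303 and 262 CPM with TNFα alone, lower at 3 durations and higher at 24 h (log2 fold change -0.22 ± 0.31, adjusted p = 0.675). CXCL1, from the same cluster, had 188, 38.3, 66.7 and 185 CPM with IFNγ plus TNFα, against 151, 37.3, 57.2 and 47.3 CPM with TNFα alone. Its fitted value of 0.78 ± 0.28 (adjusted p = 0.051) did not pass. It was -0.24 without the 2 h and 0.02 without the 24 h library of IFNγ plus TNFα, and it passed as higher without the 6 h (1.03, adjusted p = 0.00679) or the 12 h library of IFNγ plus TNFα (1.02, 0.0131). CCL20, which draws dendritic and Th17 cells, had 73.4, 4.4, 3.91 and 14.5 CPM with IFNγ plus TNFα, against 98, 6.36, 8.54 and 11.1 CPM with TNFα alone (log2 fold change -0.28 ± 0.28, adjusted p = 0.538). It passed the test as lower without the 2 h or the 24 h library of IFNγ plus TNFα (-1.14 and -1.04, adjusted p = 0.0363 and 0.0265). TNF itself had 20.2, 8.26, 10.3 and 11.8 CPM with IFNγ plus TNFα, against 24.8, 6.45, 9.82 and 18.6 CPM with TNFα alone (log2 fold change -0.21 ± 0.26, adjusted p = 0.623), and CSF2 (GM-CSF) was at -0.35 ± 0.35 (adjusted p = 0.528). CSF2 was at -1.05 without the 2 h and -0.94 without the 24 h library of IFNγ plus TNFα, between -0.16 and -0.15 without its 6 h or 12 h library or the 2 h library of TNFα alone, and passed in none of these fits. CCL2 (0.72 ± 0.27, adjusted p = 0.0568) passed without the 24 h or the 2 h library of TNFα alone (1.25 and 1.45, adjusted p = 0.00264 and 0.00127). The member that fell was LTB (lymphotoxin-β), with 3.86, 13.1, 8.99 and 10.9 CPM with IFNγ plus TNFα, against 6.73, 19.9, 28.3 and 77.3 CPM with TNFα alone (log2 fold change -1.45 ± 0.30, adjusted p = 0.000727). Its level climbed with duration under TNFα alone and peaked at 13.1 CPM with IFNγ.

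**Figure D4:**
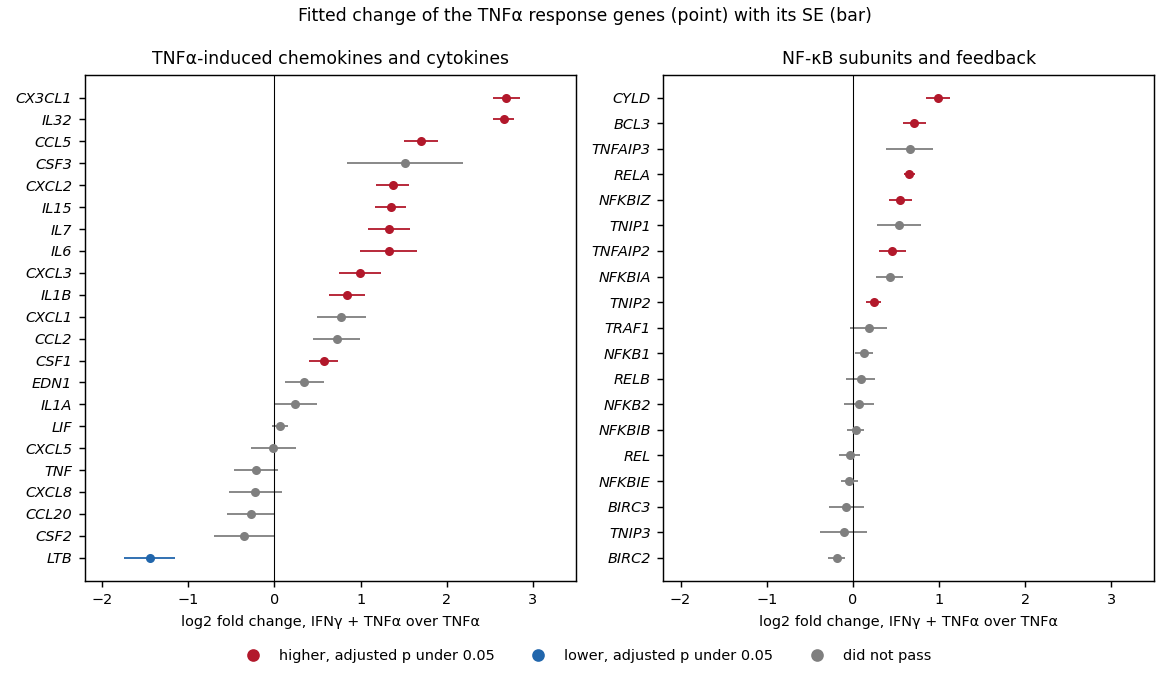
Fitted log2 fold change (point) and its SE (bar), IFNγ plus TNFα over TNFα alone. Left, the 22 tested chemokines and cytokines listed as TNFα-induced, and right, the 19 NF-κB subunit and feedback genes. CX3CL1 and IL32 lie above 2.6, LTB is the lone blue point, and most NF-κB genes lie within 1 of 0.

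Of 19 NF-κB genes 6 rose, against 12.5% of all genes, and none fell. The fitted changes were small, with a median of 0.18 (0.11 without the 6 h library of IFNγ plus TNFα). The count ran from 4 to 6 when each library was left out and was 2 without slope terms. RELA, the p65 subunit, had 122, 169, 201 and 266 CPM with IFNγ plus TNFα, against 108, 132, 124 and 102 CPM with TNFα alone (log2 fold change 0.65 ± 0.06, adjusted p = 7.24e-09). CYLD, a deubiquitinase that limits the pathway, rose by 0.99 ± 0.14, and BCL3, a nuclear co-factor, by 0.71 ± 0.14 (adjusted p = 5.57e-06 and 0.000292). NFKBIZ, an atypical inhibitor, rose by 0.55 ± 0.13 (adjusted p = 0.00289), a call lost without the 24 h (0.0542) or 2 h library of TNFα alone (0.128). The chief inhibitors did not pass. NFKBIA was at 0.43 ± 0.16 (adjusted p = 0.0503) and TNFAIP3 (A20) at 0.66 ± 0.27 (adjusted p = 0.0924). Both passed without the 2 h library of TNFα alone (0.78 and 1.14) and without the 6 h library of IFNγ plus TNFα (0.51 and 0.82), and NFKBIA also without the 24 h library of TNFα alone (0.59). Without the 2 h library of IFNγ plus TNFα they were at 0.23 and 0.13, and TNFAIP3 was at 0.29 without the 24 h one. NFKB1 was at 0.13 ± 0.10 (adjusted p = 0.408; 0.24 without the 2 h and 0.06 without the 6 h library of IFNγ plus TNFα). Upstream, 7 of 14 TNF receptor and proximal signalling genes rose, against 12.5% of all genes. Their median was 0.16, and the count was 5 to 8 with single libraries left out. TNFRSF1B, the second TNF receptor, had 100.0, 301, 311 and 307 CPM with IFNγ plus TNFα, against 80.3, 169.8, 132 and 103 CPM with TNFα alone (log2 fold change 0.99 ± 0.09, adjusted p = 3.37e-09), and TNFRSF1A rose by 0.35 ± 0.06 (adjusted p = 8.3e-05). RBCK1 and RNF31, parts of the linear ubiquitin ligase, rose by 0.90 ± 0.08 and 0.46 ± 0.07, and RIPK1 by 0.44 ± 0.06 (adjusted p = 3.79e-09, 1.03e-05 and 7.88e-07).

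Grouping genes by libraries that the comparison does not use separated these responses. Of 1357 genes higher with IFNγ 100 ng/ml alone than in unstimulated cells, 1083 (79.8%) rose when IFNγ was added to TNFα and 2 fell. Of 936 genes lower with IFNγ alone, 528 (56.4%) fell and 4 rose. Of 1661 genes higher with TNFα 1 ng/ml than in unstimulated cells, 472 (28.4%) rose and 159 (9.57%) fell. The genes raised by both single cytokines numbered 418, of which 343 (82.1%) rose and 1 fell. Of the 1179 genes raised by TNFα 1 ng/ml and not called with IFNγ alone, 129 (10.9%) rose and 110 (9.33%) fell, shares near the 12.5% and 11.2% of all genes. Seen from the other side, 59.8% of all genes that rose had been raised by IFNγ alone and 32.5% of all that fell had been lowered by it. Genes called with neither IFNγ alone nor TNFα 1 ng/ml made up 30.5% of those that rose and 53.7% of those that fell. That class held 10318 of the 14469 genes tested. Within it 5.35% rose and 8.47% fell, less than the 12.5% and 11.2% of all genes. Of 1073 genes lowered by TNFα 1 ng/ml, 303 (28.2%) fell and 80 (7.46%) rose. The IFNγ alone and TNFα 1 ng/ml comparisons share the unstimulated libraries with each other, and neither shares a library with the 8 compared here.

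Of 26 cell death genes 17 rose and 1 fell, against 12.5% and 11.2% of all genes, with a median of 0.73. Initiators and executioners of several pathways were among them. CASP1, the inflammasome caspase, had 0.482, 7.9, 27.5 and 77.8 CPM with IFNγ plus TNFα, against 0.086, 1.12, 0.785 and 3.16 CPM with TNFα alone (log2 fold change 3.63 ± 0.33, adjusted p = 3e-09). ZBP1, a sensor of Z-form nucleic acids that can start necroptosis, had 0.096, 2.87, 17.1 and 51.2 CPM with IFNγ plus TNFα, against 0, 0, 0.196 and 0.181 CPM with TNFα alone, or 691 counts against 4, a ratio of 173 with an interval of 67.2 to 636 (log2 fold change 6.28 ± 0.56, adjusted p = 2.55e-09). MLKL, the executioner of necroptosis, rose by 0.59 ± 0.08, and GSDMD, the pore protein of pyroptosis, by 1.20 ± 0.11 (adjusted p = 3.44e-06 and 1.04e-08). CASP8 and CASP4 rose by 1.03 ± 0.11 and 1.22 ± 0.12 (adjusted p = 1.07e-07 and 4.43e-08). TNFSF10, which encodes TRAIL, had 7.23, 68.4, 154 and 281 CPM with IFNγ plus TNFα, against 2.07, 5.84, 4.81 and 18.4 CPM with TNFα alone (log2 fold change 3.67 ± 0.54, adjusted p = 2.75e-05), and FAS rose by 1.20 ± 0.17 (adjusted p = 1.1e-05). TNFRSF10D, a TRAIL decoy receptor, was the member that fell, with 33.4, 20.3, 22.1 and 19.7 CPM with IFNγ plus TNFα, against 36.6, 32.2, 35 and 36.8 CPM with TNFα alone (log2 fold change -0.59 ± 0.09, adjusted p = 6.24e-06).

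Of the cell death genes, 7 belong to the BCL2 family, which was not a list of its own. Of these 5 rose, against 12.5% of all genes. BBC3 (PUMA), which promotes apoptosis, had 9.74, 18.8, 10.2 and 18.4 CPM with IFNγ plus TNFα, against 6.55, 2.92, 1.86 and 3.25 CPM with TNFα alone (log2 fold change 2.02 ± 0.28, adjusted p = 4.66e-06), without overlap, and PMAIP1 (NOXA) and BAK1, which also promote it, rose by 1.18 ± 0.11 and 1.13 ± 0.10 (adjusted p = 4.19e-09 and 7.04e-10). The survival gene BCL2A1 had 4.34, 33.9, 44.2 and 48 CPM with IFNγ plus TNFα, against 3.62, 16.6, 14.6 and 10.7 CPM with TNFα alone (log2 fold change 1.26 ± 0.26, adjusted p = 0.000915), and MCL1, another survival gene, rose by 0.67 ± 0.11 (adjusted p = 6.42e-05). BCL2L1, which also favours survival, was at 0.15 ± 0.09 and BID, which promotes apoptosis, at -0.04 ± 0.11 (adjusted p = 0.23 and 0.836). With each library left out BID lay between -0.07 and -0.02, and BCL2L1 was at 0.06 without the 2 h and 0.04 without the 24 h library of IFNγ plus TNFα. Outside that family, CFLAR, the inhibitor of CASP8, rose by 0.35 ± 0.06 (adjusted p = 0.000134).

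The decreases were smaller than the increases. The 15 genes named as lower had to be lower at all 4 durations and pass the level limit, so some larger falls are not among them. Of these 15, TNFSF18 (the GITR ligand) had 4.44, 2.78, 1.17 and 1.38 CPM with IFNγ plus TNFα, against 7.42, 10.5, 4.42 and 12 CPM with TNFα alone (log2 fold change -1.95 ± 0.33, adjusted p = 6.75e-05). ADAM12, a metalloprotease, had 2.12, 0.359, 0.489 and 0 CPM with IFNγ plus TNFα, against 2.33, 2.15, 1.67 and 0.452 CPM with TNFα alone (log2 fold change -1.98 ± 0.35, adjusted p = 9.47e-05; -3.13 without the 12 h library of IFNγ plus TNFα). GRPR, the receptor of gastrin-releasing peptide, had 12.9, 8.17, 3.62 and 2.86 CPM with IFNγ plus TNFα, against 16, 17.4, 18.5 and 14.2 CPM with TNFα alone (log2 fold change -1.51 ± 0.17, adjusted p = 8.15e-08), without overlap. NOG (noggin, a BMP antagonist) had 5.02, 1.17, 0.978 and 0.742 CPM with IFNγ plus TNFα, against 6.81, 6.88, 4.22 and 2.26 CPM with TNFα alone (log2 fold change -1.76 ± 0.30, adjusted p = 6.7e-05), and LONRF2, a ubiquitin ligase, had 5.4, 1.17, 0.88 and 0.849 CPM with IFNγ plus TNFα, against 5.78, 4.64, 4.91 and 5.6 CPM with TNFα alone (log2 fold change -1.81 ± 0.27, adjusted p = 8.34e-06). KCNF1, a potassium channel subunit, fell by 1.58 (adjusted p = 0.000818), a value of -2.83 without the 2 h and -2.47 without the 24 h library of IFNγ plus TNFα. MFNG, which modifies Notch receptors, PADI1, a peptidylarginine deiminase, the long non-coding RNA LINC02709 and GJC1, a connexin gene, fell by 1.52, 1.48, 1.48 and 1.41 (adjusted p = 0.00121, 7.68e-05, 8.73e-05 and 0.000552).

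Other calls among these 15 hung on single libraries. THRIL, a long non-coding RNA, had a fitted value of -2.36 (adjusted p = 0.0121), and it lost the call without the 24 h library of IFNγ plus TNFα (adjusted p = 0.0676) and without the 24 h (0.0874) or 2 h library of TNFα alone (0.349); without the 12 h library of IFNγ plus TNFα the value was -7.69 and without the 2 h library of TNFα alone -1.34. CST4, a salivary cystatin, was at -1.50 and lost the call without the 2 h library of IFNγ plus TNFα (0.09) or the 24 h (0.108) or 2 h library of TNFα alone (0.227). GPRIN3 was at -1.47 and lost it without the 2 h (0.146) or 24 h library of IFNγ plus TNFα (0.0693) or the 24 h (0.294) or 2 h library of TNFα alone (0.567), the last 2 leaving values of -0.89 and -0.72. ABCA10, a lipid transporter gene, was at -1.42 and lost it without the 2 h library of either treatment (adjusted p = 0.0524 and 0.162).

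Cell cycle and replication genes were lower late. Of 25 tested, 18 fell, against 11.2% of all genes, and none rose, with a median of -0.26 (-0.16 without the 2 h library of IFNγ plus TNFα). The median log2 ratio was -0.02, -0.07, -0.28 and -0.69 at 2, 6, 12 and 24 h. MCM6, part of the replicative helicase, had 147, 90.0, 71.1 and 61.9 CPM with IFNγ plus TNFα, against 155, 105, 117 and 120.4 CPM with TNFα alone (log2 fold change -0.50 ± 0.08, adjusted p = 6.7e-05). E2F1, the transcription factor of S phase entry, had 55.3, 29.7, 21 and 22 CPM with IFNγ plus TNFα, against 60.9, 38, 43.2 and 37.6 CPM with TNFα alone (log2 fold change -0.57 ± 0.09, adjusted p = 2.99e-05), and RRM2, a subunit of ribonucleotide reductase, fell by 0.33 (adjusted p = 0.000396). TOP2A, a topoisomerase of dividing cells, had 1070.2, 1082, 857 and 509 CPM with IFNγ plus TNFα, against 1101, 1183, 1001 and 971 CPM with TNFα alone (log2 fold change -0.32 ± 0.08, adjusted p = 0.00311). Each of these genes was close between groups at 2 h and lowest with IFNγ at 24 h or 12 h. The count of 18 fell to 7 without the 2 h library of IFNγ plus TNFα, to 7 without the 2 h and 9 without the 24 h library of TNFα alone, and to 13 without the 24 h library of IFNγ plus TNFα. Without slope terms 4 members fell, with only the 8 libraries or only 2 h and 6 h none did, and with only 12 h and 24 h 16 did. TOP2A and CCNA2 (cyclin A2, -0.30) lost their calls without the 2 h library of IFNγ plus TNFα (adjusted p = 0.245 and 0.15), and both were at -0.18 without its 24 h library. CDKN1A, which encodes the cell cycle inhibitor p21, had 66, 94.1, 103 and 128 CPM with IFNγ plus TNFα, against 53.9, 54.8, 48.8 and 45.2 CPM with TNFα alone (log2 fold change 0.92 ± 0.12, adjusted p = 2.6e-06).

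Slopes say how the gap between groups changed per doubling of duration. The slope was higher with IFNγ plus TNFα than with TNFα alone for 745 genes (5.15%) and lower for 581 (4.02%). Of the genes that rose 665 also had a higher slope and 4 a lower one, and of those that fell 470 had a lower slope and 1 a higher one. Most genes that changed had no called slope in either direction, and among those that did the gap nearly always widened. A further 186 genes had a called slope but neither rose nor fell. Class II genes were among the largest positive slopes. HLA-DRA, HLA-DPA1 and HLA-DRB1 gained 2.12 ± 0.22, 2.04 ± 0.26 and 1.91 ± 0.21 per doubling (adjusted p = 3.48e-07, 6.1e-06 and 6.65e-07), and CMPK2 gained 1.51 ± 0.25 (0.000329). SERPING1 gained 2.15 ± 0.42 (adjusted p = 0.00156), a call lost without the 2 h library of TNFα alone (0.323), and GBP5 gained 1.55 ± 0.32 (0.00355), lost without the 24 h library of TNFα alone (0.0946). PPARGC1A, a co-activator of mitochondrial genes, had the slope -1.08 ± 0.24 (adjusted p = 0.004), which was lost without the 2 h library of IFNγ plus TNFα (0.0826) or of TNFα alone (0.158). Of the genes the naming rule took for their slopes, STEAP4 and VSNL1 (higher) and CYP2B6, STOX1, AC007325.2, BLK, UFD1-AS1, GPR15 and CST1 (lower) each lost the call without at least 1 of the 8 libraries and are not described further. The counts fell most without libraries at the ends of the series. The higher count was 201 without the 2 h and 374 without the 24 h library of TNFα alone and 389 without the 24 h library of IFNγ plus TNFα. The lower count was 117, 138 and 167 in that order. Without the 2 h library of IFNγ plus TNFα the higher and lower counts were 567 and 528, and 51.8% and 45.6% of the original calls were kept.

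IFNγ added to TNFα was also set against IFNγ 100 ng/ml added to unstimulated cells, to see where the presence of TNFα changed the effect of IFNγ. The signed difference, the log2 effect of IFNγ with TNFα minus that without, was positive and passed the test for 51 genes (0.352%) and was negative and passed for 25 (0.173%). Of the 51, 46 rose and none fell with IFNγ on top of TNFα, and 16 rose and 8 fell with IFNγ alone. Of the 25, 9 rose and 13 fell with IFNγ on top of TNFα, and 14 rose and 1 fell with IFNγ alone, so that a negative difference held smaller increases as well as decreases. PTAFR, the receptor of platelet-activating factor, had 5.3, 26.9, 51.7 and 99.6 CPM with IFNγ plus TNFα, against 2.59, 4.56, 4.22 and 6.96 CPM with TNFα alone. With IFNγ alone it had 0.513, 1.3, 1.03 and 1.19 CPM, against 0.677, 0.586, 0.438 and 0.795 CPM in unstimulated cells. Its IFNγ effect was 2.76 ± 0.17 with TNFα and 0.64 ± 0.36 without, a difference of 2.11 ± 0.42 (adjusted p = 0.0123). NINJ1, which ruptures the membrane of dying cells, had 57.3, 131, 152 and 239.9 CPM with IFNγ plus TNFα, against 46.2, 49.2, 20.1 and 23.9 CPM with TNFα alone. Its IFNγ effect was 1.96 ± 0.16 with TNFα and 0.28 ± 0.21 without (difference 1.69 ± 0.27, adjusted p = 0.00225). For C1R the effects were 4.78 and 3.08 (difference 1.70 ± 0.32, adjusted p = 0.00829), and for ARID5B, a chromatin regulator, 1.78 and 0.09 (difference 1.69 ± 0.27, adjusted p = 0.001).

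Among negative differences, CSF1, the macrophage growth factor, had 256, 384, 221 and 208 CPM with IFNγ plus TNFα, against 269.9, 225, 123 and 123 CPM with TNFα alone, and 67.1, 142, 111 and 95.7 CPM with IFNγ alone, against 15.7, 16.2, 15.8 and 28.9 CPM in unstimulated cells. IFNγ raised it by 0.57 ± 0.17 with TNFα and by 2.43 ± 0.20 without, a difference of -1.86 ± 0.26 (adjusted p = 0.000503). The increase on top of TNFα (adjusted p = 0.0145) was not called without the 6 h (0.0527) or 12 h library of TNFα alone (0.0536). ETV7, with 4.1, 31, 42.6 and 50.1 CPM after IFNγ alone and only 0.15, 0.22, 0 and 0.088 CPM in unstimulated cells, gained 4.57 with TNFα and 7.76 without (difference -3.19 ± 0.54, adjusted p = 0.00235), a call lost without the 6 h library of TNFα alone (0.119). TAP1 gained 3.02 and 4.29 (difference -1.27 ± 0.22, adjusted p = 0.00637), and PSMB9, which shares its promoter region with TAP1, 2.31 and 3.38 (difference -1.07 ± 0.20, adjusted p = 0.0083). PSMB8-AS1, which runs antisense to PSMB8 and may hold its reads, and TPSB2, a mast cell tryptase with near-identical copies, had differences of -1.66 ± 0.26 and -1.66 ± 0.25 (adjusted p = 0.001 and 0.000492). The CXCR3 ligands did not pass here. CXCL10 had 1.03, 37.2, 111 and 267 CPM with IFNγ alone, against 0.226, 0.146, 0.788 and 0.53 CPM in unstimulated cells, and the difference of the effects was 2.78 ± 1.16 for CXCL10 and 0.80 ± 1.26 for CXCL11 (adjusted p = 0.407 and 0.901). CXCL9 had 1.62, 15.4, 52.1 and 189 CPM with IFNγ alone, against 0, 0, 0.088 and 0.177 CPM in unstimulated cells (adjusted p = 0.757 for the difference). Leaving out the 2 h library of TNFα alone left 20 genes with a positive and 10 with a negative difference, and leaving out its 24 h library left 24 and 11. The negative count was 15 without the 12 h library of TNFα alone, 16 without the 12 h and 51 without the 24 h library of IFNγ plus TNFα.

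**Figure D5:**
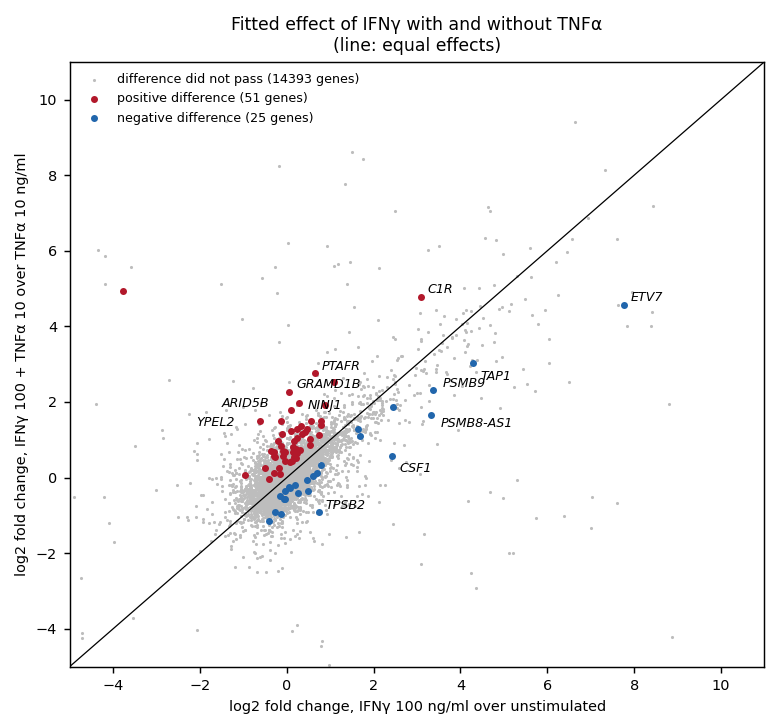
Fitted log2 fold change of IFNγ 100 ng/ml plus TNFα 10 ng/ml over TNFα 10 ng/ml (vertical) against IFNγ 100 ng/ml over unstimulated cells (horizontal), 1 point per gene, with the line of equal effects. The 51 red genes lie above the line and the 25 blue genes below it; 32 of 14469 genes lie outside the axes, which run from -5 to 11.

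Among the remaining lists most members did not pass, and several counts lie near the 12.5% of all genes that rose or the 11.2% that fell. ICAM1, the adhesion molecule that leukocytes bind, was the adhesion gene of 7 that rose, with 1640.3, 3519, 2570.1 and 3265 CPM with IFNγ plus TNFα, against 1107, 1259, 557 and 583 CPM with TNFα alone (log2 fold change 1.68 ± 0.26, adjusted p = 5.01e-05), and 2 of its list fell. VCAM1 was at 0.58 ± 0.29 (adjusted p = 0.161) and passed without the 24 h library of IFNγ plus TNFα (0.87, adjusted p = 0.0456). Of 10 matrix remodelling genes 3 rose and 2 fell. PLAUR, the urokinase receptor, rose by 0.90 ± 0.13 (adjusted p = 1.62e-05). Of 9 acute-phase and antimicrobial genes 4 rose, SAA1 by 0.79 ± 0.17 (adjusted p = 0.000996). Of 16 immediate-early and AP-1 genes 5 rose and 1 fell. KLF4 and JUNB rose by 1.20 ± 0.07 and 0.89 ± 0.16, and IER3 fell by 0.38 (adjusted p = 6.22e-13, 0.000137 and 0.00264).

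Of 18 ATF4 target and cystine transport genes 3 rose and 3 fell, near the 12.5% and 11.2% of all genes. ATF3, a stress factor, had 22.4, 21.5, 18.2 and 26.9 CPM with IFNγ plus TNFα, against 15.6, 4.3, 1.77 and 1.45 CPM with TNFα alone (log2 fold change 2.60 ± 0.32, adjusted p = 1.46e-06), without overlap. SLC7A11, the cystine importer that guards against ferroptosis, had 339, 249, 91.5 and 73.7 CPM with IFNγ plus TNFα, against 339, 348, 258 and 320.2 CPM with TNFα alone (log2 fold change -1.02 ± 0.21, adjusted p = 0.000887), so that it was level at 2 h and lowest with IFNγ at 24 h. GPX4, the peroxidase of that defence, was at -0.31 ± 0.08 (adjusted p = 0.0036), a call lost without the 2 h or the 24 h library of IFNγ plus TNFα, at -0.16 and -0.20 (adjusted p = 0.248 and 0.0688). In cholesterol synthesis 2 of 19 genes passed as higher and 2 as lower, shares no larger than those of all genes, with STARD4 (a sterol carrier) at 0.77 ± 0.12 and SQLE (squalene epoxidase) at -0.41 ± 0.09 (adjusted p = 2.07e-05 and 0.00137). Of 11 iron and copper genes 4 rose, STEAP4 and STEAP2 (0.67 ± 0.10, adjusted p = 6.23e-06) among them. Of 11 epithelial and ovarian carcinoma genes 3 rose and 2 fell. The mucin gene MUC1 rose, with 4.05, 8.26, 8.21 and 11.3 CPM with IFNγ plus TNFα, against 1.55, 2.49, 1.28 and 1.35 CPM with TNFα alone (log2 fold change 2.17 ± 0.23, adjusted p = 4.07e-08). The far more abundant keratin gene KRT7 fell, with 411, 294, 255 and 237 TPM with IFNγ plus TNFα, against 476, 392, 450 and 544 TPM with TNFα alone. Its call was lost without the 2 h library of TNFα alone (-0.25, adjusted p = 0.124 in the edgeR fit). TGFβ and BMP feedback genes split evenly, with 2 of 10 higher, the inhibitor SMAD7 by 0.82 ± 0.15 (adjusted p = 0.00019), and 2 lower. Of 6 G1 regulators 2 rose, and of 5 Wnt feedback targets 2 fell. These short lists move easily. With single libraries left out, 1 to 3 acute-phase genes, 2 or 3 matrix genes, 2 to 4 iron and copper genes, 1 to 3 epithelial genes, 1 or 2 TGFβ and BMP genes, 1 or 2 G1 regulators and 2 to 4 ATF4 targets rose, and 0 to 2 adhesion genes, 0 to 2 matrix genes, 0 to 3 Wnt targets, 1 to 3 TGFβ and BMP genes, 0 to 3 epithelial genes, 1 to 3 ATF4 targets and 1 or 2 cholesterol genes fell. Each of the 8 libraries, when left out, moved at least 1 of these counts by over 1.5 times.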

How the data were processed

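OVCAR5 mRNA was sequenced in 44 libraries (11 treatments at 4 durations, 1 library each), of which 8 are compared here. The authors deposited 1 Salmon quantification per library with estimated counts (expected counts, which need not be whole) and TPM values per gene. The submitters' processing notes name GRCh38, Salmon, STAR, StringTie, DESeq2 and other tools without versions. The sources used here give neither their roles nor the strand counted. The extract protocol in the labels describes total RNA and a stranded mRNA kit.

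From the deposited estimated counts, rounded to whole numbers, 14469 of 33538 gene IDs passed edgeR's filterByExpr (minimum count 10, minimum total 15). A quasi-likelihood model (edgeR 4.0.16 in R 4.3.3, robust, TMM scaling) was fitted to all 44 libraries with duration as a factor, treatment, and a slope on centred log2 duration per treatment, with 20 residual degrees of freedom. SEs are the fold change over the square root of the F value. The median of what edgeR calls the biological coefficient of variation was 7.485%. Here it is the scatter around the fitted slopes and may be technical. The fits share 1 estimate of the spread, and with 1 library per condition the departure from a straight line in time counts as error. Ratios at a single duration used CPM with a prior count of 2 and have no test. Gene names came from a gene table (33113 IDs) and GENCODE v29 (343), and 82 IDs stayed unnamed. Levels of different genes were compared with the deposited TPM values. Intervals of pooled counts are exact at 95%, cover counting error only, and use a floor of 3 counts over the group where a group had 0. Before use the fit was tested on counts simulated from the fitted model itself. Such counts follow its slopes and its spread, so that this test cannot speak to departures from a straight line or to libraries that share a culture.

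Named genes were the 15 highest and 15 lowest called fold changes and the 8 highest and 8 lowest called slopes. The 6 highest and 6 lowest called differences of the IFNγ effect and members of gene lists were also named. Apart from list members, these were taken among genes with a symbol and a mean log2 CPM of at least 0 over all libraries. The 15 on each side also needed a log2 ratio of the same sign at all 4 durations. Called genes with larger changes, such as ZBP1, were therefore left out of the 15. Genes beyond these in the text were taken for their role, and some list members are not reported here. The compared libraries and the lists were chosen with earlier results of these data known. Alternatives covered scaling, filters, DESeq2 1.42.0, limma-voom (limma 3.58.1), fewer libraries or durations, a model without slopes, and each of the 8 libraries left out. The fits to the 8 libraries alone, to 2 h and 6 h, and to 12 h and 24 h also had no slope terms. The alternatives for single durations, gene lists and the single-cytokine comparisons were chosen after seeing the data.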

Additional observations from a re-analysis of the deposited data

Results flagged for a closer look

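For 12 named genes the effect of IFNγ differed between cells with and without TNFα by the test of the difference itself (edgeR). The effect with TNFα minus that without was positive for GRAMD1B (difference 2.21 on the log2 scale), YPEL2 (2.13), PTAFR (2.11), C1R (1.70), ARID5B (1.69) and NINJ1 (1.69). It was negative for ETV7 (-3.19), CSF1 (-1.86), PSMB8-AS1 (-1.66), TPSB2 (-1.66), TAP1 (-1.27) and PSMB9 (-1.07).

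GRAMD1B, a sterol transporter, had 2.8, 1.98, 7.04 and 23 CPM with IFNγ plus TNFα, against 1.9, 0.86, 0.491 and 1.72 CPM with TNFα alone; with IFNγ alone it had 2.31, 6.42, 11.5 and 28 CPM, against 4.21, 3.37, 12.2 and 24.3 CPM in unstimulated cells. Its difference was not called when any 1 of 7 of the 8 libraries was left out. YPEL2 had 5.5, 5.48, 6.36 and 14.1 CPM with IFNγ plus TNFα, against 2.24, 2.41, 1.67 and 4.43 CPM with TNFα alone; with IFNγ alone it had 0.769, 0.488, 0.343 and 2.37 CPM, against 0.527, 0.659, 2.1 and 3.44 CPM in unstimulated cells. Its difference was not called without the 24 h (adjusted p = 0.0755) or 2 h library of TNFα alone (0.165, edgeR). TPSB2 had 2.89, 4.31, 4.2 and 5.73 CPM with IFNγ plus TNFα, against 3.1, 6.1, 11 and 19.2 CPM with TNFα alone, and its fitted log2 fold change was -0.92 with IFNγ on top of TNFα and 0.73 with IFNγ alone.

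For 8 of 191 named genes 1 of the 4 durations lay far from the other 3 in the log2 ratio of IFNγ plus TNFα over TNFα alone, by Dixon's test, which flags about 1 group in 20 by chance. The lowest ratio was at 2 h for STEAP4 (2.40), IRF8 (3.92), IRF1 (1.96), CSF1 (-0.0769), PMAIP1 (0.86), BBC3 (0.56) and C1S (2.82). The highest was at 24 h for CXCL1 (1.96). The 4 values are a time course and not repeats.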

How the results depend on the processing

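Of 174 called named genes, 155 kept the call when each of the 8 libraries was left out in turn, 165 under all 6 other scalings, filters and tools, 168 with only 12 h and 24 h, 153 without slope terms, 54 in a fit to the 8 libraries alone and 31 with only 2 h and 6 h. The numbers of genes higher and lower were 175 and 4 with the 8 libraries alone and 79 and 0 with only 2 h and 6 h. In those fits fewer libraries entered and slope terms were left out (394 lower genes had an unadjusted edgeR p under 0.05 at 2 h and 6 h). Lower genes numbered 4125 with library totals as the scaling and 788 without slope terms. With each library left out, 1289 to 1707 genes were higher and 808 to 1510 lower.

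Higher slopes numbered 201 to 798 and lower slopes 117 to 528 with each library left out. Lower slopes numbered 1758 with library totals, 387 without a filter and 302 with the 16 libraries of 4 treatments. Genes with a positive difference of the IFNγ effect (with TNFα minus without) numbered 20 to 54 with each library left out, 2 without slope terms, 33 with 16 libraries and 1 with only 2 h and 6 h. Those with a negative difference numbered 10 to 51, 52 with library totals, 0 without slope terms (408 at an unadjusted edgeR p under 0.05), 16 with 16 libraries, 0 with only 2 h and 6 h (121 unadjusted) and 40 with DESeq2. All 12 named differences of this kind and 12 of 16 named slopes lost the call under some setting. Genes higher with IFNγ alone numbered 851 without slope terms and 72 with only 2 h and 6 h. Genes higher and lower with TNFα 1 ng/ml numbered 1005 and 535 without slope terms, 473 and 80 with only 2 h and 6 h, and 856 and 544 with only 12 h and 24 h, and 1819 were lower with library totals.

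Past 2-fold at a single duration without a filter, 880 genes were higher and 829 lower at 2 h, 1260 and 844 at 6 h, 1582 and 1122 at 12 h, and 1737 and 1652 at 24 h. With a prior count of 5, 223 were higher and 126 lower at 2 h, and 157 and 319 were lower at 6 h and 12 h. Values that turned direction were all close to 0 or uncalled: CXCL1 -0.24 without the 2 h library of IFNγ plus TNFα (-0.24 to 1.03 with each library left out), CXCL8 0.0103 (-0.81 to 0.0103) and CCL20 0.0564 (-1.14 to 0.0564) without the 2 h library of TNFα alone, TNF 0.28 and 0.48 without the 24 h and 2 h libraries of TNFα alone (-0.42 to 0.48), and CCNA2 0.0017, CCND1 -0.0629, BCL2L1 -0.0401 and GPX4 0.0004 with only 2 h and 6 h. The cause of these changes was not tested.

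Libraries were paired by duration, a factor in each fit, and the replicate numbers, given in accession order, pair nothing further. Low counts limit ratios of genes near 0 with TNFα alone, and 28 list members were too low to test.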
